A study of Mus musculus with 4 samples.

Results

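The genes described here lie on mouse chromosome 4 between Col16a1 and H6pd. A list of 55 genes of this stretch was taken as the members, and 54 of them had a probe that could be matched and measured. Camk2n1 was matched to no probe and has no value. The stretch and its members were picked with the tumour ratios of these same arrays in view, so the ratios between genotypes given for the members are a description and were not tested. In all, 32655 genes or transcripts were measured, and 218 of the 636 genes annotated between Col16a1 and H6pd were among them. The members are therefore 54 of 218 measured genes, and the other 164 are given beside them.

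The comparison used mammary tumours at the early T1 stage from 4 FVB/N females that were 26 weeks old. Mice labelled neu carry MMTV-neu, and mice labelled Cdc25a;neu carry both MMTV-cdc25a and MMTV-neu. The promoter of the mouse mammary tumour virus (MMTV) drives these transgenes mainly in mammary epithelium, neu is the rodent gene of the receptor tyrosine kinase ERBB2, and CDC25A is a phosphatase that activates cyclin-dependent kinases. The neu transgene is thus shared by both groups. Each Cdc25a;neu tumour was hybridised with 1 neu tumour on a two-colour array, which gave 2 mouse pairs, and each pair was hybridised on 2 arrays with the dyes exchanged. A ratio is given throughout as log2 of Cdc25a;neu over neu, and a pair's value is the mean of its 2 arrays. The error over pairs is an SD with n = 2 and is wide, because each genotype has only 2 tumours.

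Genes of one chromosomal stretch need not share a pathway. They share their position, so they gain or lose copies together when a stretch is amplified or deleted, as happens in tumours, and neighbouring genes can also share chromatin state. The distal part of mouse chromosome 4 holds genes whose human counterparts lie on the short arm of chromosome 1. Neither DNA nor chromatin was measured here. A lower signal in a bulk tumour sample can come from fewer cells of a type or from less RNA per cell, and the arrays cannot tell these apart.

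The arrays' Cdc25a probe gave a ratio of 0.09 in pair 1 and 0.01 in pair 2. Erbb2 gave 0.45 and 0.85. The labels do not say which part or species of cdc25a the transgene holds, so the Cdc25a probe may not report it and does not check the labels; the tumours are named by their labels. Between 78.5% and 92.2% of the probes' spots were well above background in each channel. All 54 members were well above background in both channels on all 4 arrays, and none had a saturated spot. Of the marker lists, all 8 luminal epithelium genes were measured, and their median ratio was -0.05 (pair 1) and -0.11 (pair 2). Fat cell markers were lower in both pairs for 7 of 7 genes, with medians of -0.96 and -1.77. Skeletal muscle markers had medians of 0.05 and -0.99, and endothelial markers 0.05 in both pairs. Proliferation markers had medians of 0.30 and 0.20. The part of these cell types in the members' ratios was not tested.

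Most members had less signal in the Cdc25a;neu tumour than in the neu tumour of both pairs. Their median ratio was -0.36 over pairs, with -0.45 in pair 1 and -0.26 in pair 2, against 0.00 over all measured genes. On all 4 arrays 34 of the 54 members were lower, where 12.5% of all genes were, and 6 were higher on all 4 arrays, where 14.7% of all genes were. In both pairs 36 members were lower, against 28.1% of all genes, and 7 were higher, against 31.9%. These counts have no size threshold. The 36 include Rsrp1, Efhd2 and Ece1, which were close to 0 in pair 2. Of the 34 members lower on all 4 arrays, 10 were lower by 1.5-fold or more in the mean. With median centring in place of loess 14 members were lower on all 4 arrays. The contrast between genotypes chose the stretch, so nothing is read from these shares. Over all genes, limma's moderated test on the 2 pair means called 0% (0 of 32652) at an adjusted p under 0.05, with 3149 genes at an unadjusted p under 0.05 and a lowest adjusted p of 0.223. With median centring it called 933 genes. The sign of the mean over pairs changed under at least 1 alternative of processing for Laptm5, Srsf4, Hspg2, Igsf21, Tnfrsf1b and Pik3cd, so no direction is given for these 6.

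The shift was smaller in the rest of the stretch. The other 164 measured genes between Col16a1 and H6pd had a median of -0.09, with -0.16 in pair 1 and -0.07 in pair 2, and 69 of them (42.1%) were lower on all 4 arrays. The remaining 675 measured genes of chromosome 4 had a median of -0.05, and 28.3% were lower on all 4 arrays. For 14411 genes of other chromosomes the median was 0.00 and the share 14.0%. The members were picked with these ratios in view. That their median lies farther below 0 than that of the other genes of the stretch is therefore not read as a result. Just outside, the nearest measured neighbour before Col16a1 is Adgrb2, an adhesion G-protein-coupled receptor, at 0.03 ± 0.13 (SD, n = 2 pairs). The nearest after H6pd is Gpr157, at -0.03 ± 0.11 (SD, n = 2 pairs). Adgrb2 had a mean log2 signal of 7.29, in the middle tercile of all measured genes, and Gpr157 6.77, in the dimmest. Genes of the stretch outside the list also had medians near 0 in these terciles (-0.04 and -0.01). The 2 neighbours therefore cannot show where the shift ends.

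**Figure D1:**
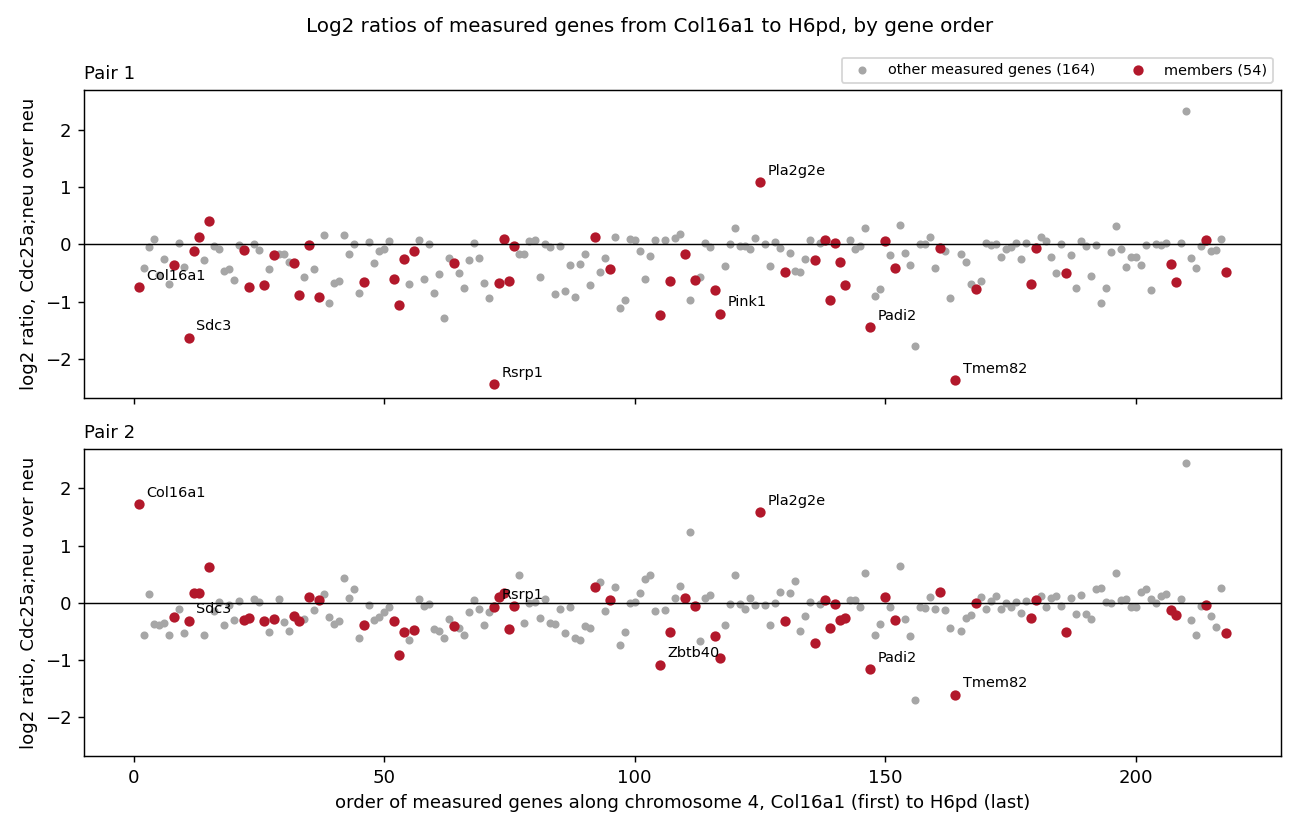
Log2 ratio of Cdc25a;neu over neu in pair 1 (top) and pair 2 (bottom) against the order of the 218 measured genes along chromosome 4; red points are the 54 members and grey points the other 164 genes. Members with low ratios lie among members and other genes near 0, and the median of the members is -0.45 in pair 1 and -0.26 in pair 2.

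By position, members with low ratios were found along the whole stretch rather than at one end. The members were picked with these ratios in view, so nothing is read from this spread. The 54 members in order were divided into 6 runs of 9. From Col16a1 to Atpif1 the median was -0.20, from Eya3 to Hmgn2 -0.44, and from Cd52 to Hnrnpr -0.29. From Zbtb40 to Aldh4a1 it was -0.49, from Pax7 to Spen -0.30, and from Tmem82 to H6pd -0.44. All 6 medians were below 0, with no steady trend from the first run to the last. The other measured genes lying within the same runs had medians of -0.23, -0.22, -0.26, 0.01, -0.05 and -0.06. Outside the list the medians were below 0 in the 3 runs from Col16a1 to Hnrnpr and near 0 in the later runs. The runs were not matched for signal. Over the whole stretch, genes outside the list had medians of -0.31 in the brightest tercile, -0.04 in the middle and -0.01 in the dimmest. The medians by run therefore cannot show where along the stretch these genes were low, or set them apart from the members.

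Members that are next to each other among the measured genes did not always share a ratio. There were 17 such neighbouring pairs. Ddost, a subunit of the oligosaccharyltransferase that glycosylates proteins in the endoplasmic reticulum, stood at -0.80 and -0.58 in pairs 1 and 2, and its neighbour Pink1 at -1.21 and -0.96. Runx3, a transcription factor of lymphocytes and epithelium, stood at 0.10 and 0.17 between Syf2 at -0.67 and 0.10 and Clic4 at -0.65 and -0.46. Pax7, a transcription factor of muscle stem cells, stood at 0.08 and 0.06 beside Klhdc7a at -0.96 and -0.45. Members low in both pairs and members near 0 were thus found side by side.

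The ratio was farther below 0 among brighter members. Of the members, 38 lay in the brightest tercile of all measured genes, 14 in the middle and 2 in the dimmest, with median ratios of -0.42, -0.26 and -0.08, the last resting on those 2 genes. The other genes of the stretch had medians of -0.31 in the brightest tercile (79 genes), -0.04 in the middle (55 genes) and -0.01 in the dimmest (30 genes). With the scanner's own log ratio, tried here once these values had been seen, the members' medians were -0.44 in the brightest and -0.37 in the middle tercile, so the gap between these terciles was smaller. Those of the other genes were then -0.34 and -0.12. Over all measured genes the medians of the 3 terciles were -0.01, 0.01 and 0.01. In the brightest tercile, members and other genes of the stretch were closer to each other than over all signals, and 70.4% of members against 48.2% of the others are that bright.

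**Figure D2:**
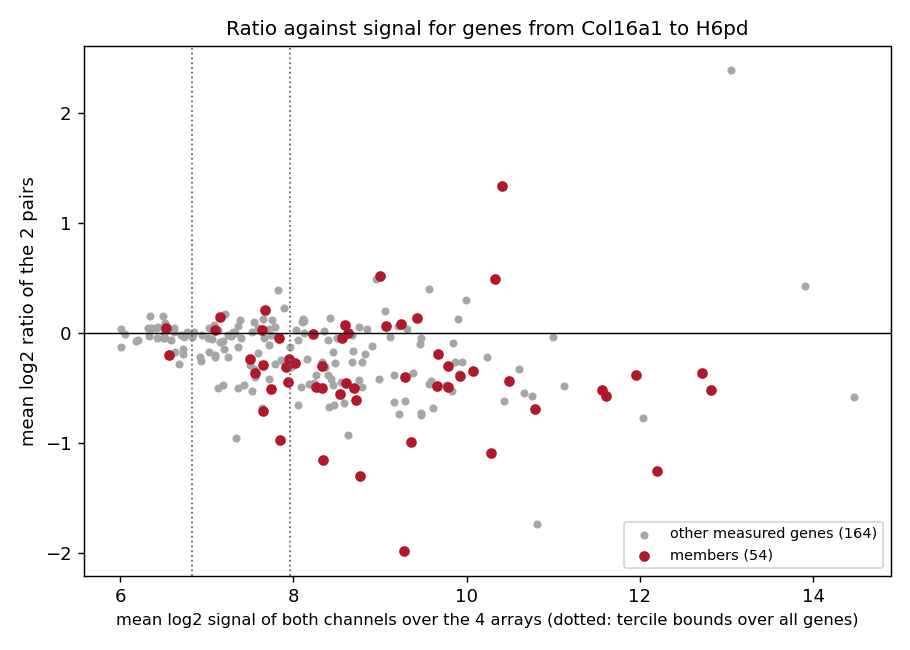
Mean log2 ratio of the 2 pairs against mean log2 signal of both channels for the 54 members (red) and the other 164 measured genes (grey) of the stretch; dotted lines are the tercile bounds over all measured genes, at 6.83 and 7.97. The median ratio of the members is -0.08 in the dimmest tercile, which holds 2 of them, and -0.42 in the brightest.

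Of the single members, the lowest was Tmem82, which encodes a predicted transmembrane protein. On the arrays of pair 1 its ratio was -2.50 and -2.23, and on those of pair 2 -1.68 and -1.53. All 4 values lie below -1.5, and the mean was -1.98 ± 0.54 (SD, n = 2 pairs). Padi2, a peptidylarginine deiminase that turns arginine into citrulline in proteins, gave -1.52 and -1.37 in pair 1, then -1.08 and -1.24 in pair 2, with a mean of -1.30 ± 0.20 (SD, n = 2). Zbtb40, a zinc finger protein with a BTB domain, gave -1.20 and -1.25, then -1.32 and -0.83, with a mean of -1.15 ± 0.10 (SD, n = 2). For both genes the values of the 2 pairs are close to each other.

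Pink1, the mitochondrial kinase that marks damaged mitochondria for removal, had ratios of -1.18 and -1.24 in pair 1, then -1.09 and -0.83 in pair 2, a mean of -1.09 ± 0.18 (SD, n = 2). Rps6ka1, a ribosomal S6 kinase activated by ERK, gave -1.18 and -0.95, then -1.11 and -0.73, a mean of -0.99 ± 0.10 (SD, n = 2). Both were low on every array by a similar amount. Klhdc7a, a protein with kelch repeats, gave -1.32 and -0.60, then -0.24 and -0.65, a mean of -0.71 ± 0.37 (SD, n = 2). Its arrays differed widely within each pair, and its second probe had a mean of -0.27. The remaining low members, Rsrp1 and Sdc3, differed between pairs and are described with that comparison.

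Pla2g2e, a secreted phospholipase A2, had the highest ratio. It gave 1.09 and 1.09 in pair 1, then 1.42 and 1.75 in pair 2, with a mean of 1.34 ± 0.35 (SD, n = 2 pairs), so it stood above 0 on every array. The measured genes on either side of it, Pla2g2a and Rnf186, stood at 0.04 and -0.02. Within 0.25 of its ratio on every array there were 101 other genes or transcripts of the array; for Padi2 there was 1 and for Tmem82 there were 0. Id3, an inhibitor of basic helix-loop-helix transcription factors, gave 0.00 and 0.27, then 0.37 and 0.19, with a mean of 0.21 ± 0.10 (SD, n = 2). One of these 4 values is at 0.

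Srsf4, a splicing factor rich in serine and arginine, was ambiguous. Its brightest probe gave 0.40 and 0.42 in pair 1, then 0.77 and 0.50 in pair 2, a mean of 0.52 ± 0.16 (SD, n = 2). Its other probe gave -0.72 and -0.85, then -0.72 and -0.64, a mean of -0.73. The probes point in opposite directions on all 4 arrays, so no direction is given for the gene. Probes of unlike sign were found for 5 of the 17 members with several probes.

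Among these, Clic4, a chloride intracellular channel protein, gave -0.53, -0.76, -0.48 and -0.44 on the probe used over the arrays of pairs 1 and 2, and its second probe had a mean of 0.03. Eya3, a transcriptional coactivator and phosphatase, gave -0.19, -0.19, -0.38 and -0.17 on one probe and a mean of 0.08 on the other. Atpif1, which inhibits the mitochondrial ATP synthase when it runs in reverse, gave -0.72, -0.71, -0.26 and -0.38 on the probe used; its second probe had a mean of 0.03. In each of these 3 genes the second probe lies near 0. The mean of all probes differed by over 1.5 times from the value of the probe used for 8 members, which are Clic4, Eya3, Atpif1, Srsf4, Tnfrsf1b, H6pd, Kif1b and Srrm1.

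The promoters of 4 members are shown because they stand for the range of ratios: Padi2 and Pink1 were low in both pairs, Rsrp1 in pair 1 alone by a large amount, and Pla2g2e was high. They were chosen after the ratios were seen. The 250 bases before the outermost annotated start are given from RefSeq's table for GRCm38.p6, on the gene's strand, with the GC box GGGCGG, the CCAAT box CCAAT and the TATA box TATAAA searched on both strands and any match in capitals. The windows are chr4:140906110-140906359 (plus strand) for Padi2, chr4:138326297-138326546 (minus strand) for Pink1, chr4:134923375-134923624 (plus strand) for Rsrp1 and chr4:138877692-138877941 (plus strand) for Pla2g2e.
Padi2: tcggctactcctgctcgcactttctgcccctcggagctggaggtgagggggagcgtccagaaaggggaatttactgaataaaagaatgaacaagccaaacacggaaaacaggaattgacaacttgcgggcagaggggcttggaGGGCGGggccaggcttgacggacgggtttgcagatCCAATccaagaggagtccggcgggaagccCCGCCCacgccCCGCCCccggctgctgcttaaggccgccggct
Pink1: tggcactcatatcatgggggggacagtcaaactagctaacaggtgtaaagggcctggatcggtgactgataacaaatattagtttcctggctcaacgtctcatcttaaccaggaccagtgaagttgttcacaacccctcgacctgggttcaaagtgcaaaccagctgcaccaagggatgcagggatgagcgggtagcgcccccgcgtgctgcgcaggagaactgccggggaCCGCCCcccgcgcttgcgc
Rsrp1: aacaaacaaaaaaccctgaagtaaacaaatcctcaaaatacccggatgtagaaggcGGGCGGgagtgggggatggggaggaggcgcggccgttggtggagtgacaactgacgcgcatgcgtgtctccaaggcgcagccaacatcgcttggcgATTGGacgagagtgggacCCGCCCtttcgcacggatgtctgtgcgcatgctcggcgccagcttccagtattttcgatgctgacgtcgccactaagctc
Pla2g2e: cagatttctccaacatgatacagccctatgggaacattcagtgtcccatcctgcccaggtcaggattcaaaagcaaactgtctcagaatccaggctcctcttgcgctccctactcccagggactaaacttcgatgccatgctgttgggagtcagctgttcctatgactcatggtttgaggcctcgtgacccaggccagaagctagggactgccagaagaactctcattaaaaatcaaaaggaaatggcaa
The Padi2 window holds 3 GC boxes and 1 CCAAT box, that of Rsrp1 2 GC boxes and 1 CCAAT box, and that of Pink1 1 GC box. None of these motifs occurs in the window of Pla2g2e.

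Over the table's whole windows of 300 bases, 48 members were matched. Their median GC content was 62.8%, against 58.3% for 12165 genes measured on the arrays and 60.0% for the 5551 of these in the brightest tercile. The GC box occurred in 77.1% of members, in 52.9% of measured genes and in 59.8% of bright ones. The CCAAT box occurred in 43.8% of members and 38.9% of measured genes, and the TATA box in 6.25% and 12.1%. These are matches of letters and not sites of binding.

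The members fall into 8 groups by role, formed with these ratios known. The group medians given as below 0 stayed below 0 under every alternative of processing tried, except that of the matrix and surface genes, which ranged from -0.014 to 0.077. The 7 members of mitochondria and metabolism were lower on all 4 arrays without exception, with a median of -0.50; with median centring 3 of the 7 were. Besides Pink1 and Atpif1 they are Mfn2, which fuses mitochondria (-0.50 in pair 1 and -0.51 in pair 2), H6pd, a hexose-6-phosphate dehydrogenase of the endoplasmic reticulum (-0.48 and -0.52), and Aldh4a1, an enzyme of proline breakdown (-0.27 and -0.71). Pgd, an enzyme of the pentose phosphate pathway, stood at -0.35 and -0.13, and Dhrs3, a retinal reductase, at -0.69 and -0.27. Their means ranged from -1.09 to -0.24. The count rests on the probe used for each gene. The second probe of H6pd was near 0, at 0.00 in pair 1 and -0.08 in pair 2, as was that of Atpif1. Both second probes are dimmer than the probe used.

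The 4 members of membrane traffic, glycosylation and kinase signalling were also lower on all 4 arrays, with a median of -0.65. They are Rps6ka1, Ddost, Stx12, a syntaxin of endosomes, and Necap2, which takes part in clathrin-mediated endocytosis (-0.42 and -0.30). The 3 members left over, Tmem82, Padi2 and Klhdc7a, were lower on all 4 arrays too.

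Of the 9 members of actin, microtubules and small GTPases, 7 were lower on all 4 arrays and none was higher on all 4, with a median of -0.44; with median centring 2 were lower on all 4. Cdc42, a small GTPase that organises actin and cell polarity, stood at -0.63 in pair 1 and -0.51 in pair 2. Capzb, which caps actin filaments, stood at -0.48 and -0.31, Stmn1, which destabilises microtubules, at -0.32 and -0.41, and the kinesin Kif1b at -0.66 and -0.22. Of the other 2 probes of Kif1b, one stood at -0.89 and 0.19 and the other at -0.09 and -0.07. Capzb, Stmn1 and Cdc42 had the same direction in both pairs. Wasf2 and Efhd2, of the same group, were low in pair 1 and near 0 in pair 2.

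Among the 11 members of chromatin, chromosomes and transcription, 7 were lower and 2 higher on all 4 arrays, with a median of -0.23; with median centring 3 were lower on all 4. Nudc, a dynein-associated protein of nuclear movement and mitosis, stood at -0.65 and -0.38, Arid1a, a subunit of SWI/SNF chromatin remodellers and a tumour suppressor gene, at -0.60 and -0.31, and Hmgn2, a nucleosome-binding protein, at -0.25 and -0.52. Rcc1, the exchange factor of the GTPase Ran, stood at -0.10 and -0.30. Runx3, Pax7 and Id3 were at or above 0 in both pairs. The 7 members of RNA processing had a median of -0.27, and 4 were lower on all 4 arrays, or 0 with median centring. Snrnp40, a protein of the U5 small nuclear ribonucleoprotein, stood at -0.36 and -0.25, Ppp1r8, a nuclear regulator of protein phosphatase 1, at -0.32 and -0.22, and Srrm1, a splicing coactivator, at -0.03 and -0.06. The second probe of Ppp1r8 stood at -0.41 and -0.65, and that of Srrm1 at -0.35 and -0.49, farther below 0 than the probe used.

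Blood cell genes and matrix and cell surface genes had medians near 0. In the group of blood cell genes and their signalling, Pla2g2e had a mean over pairs of 1.34. The other means of this group ranged from -0.30 for Cd52 to 0.04 for Fgr. The matrix and cell surface genes held large ratios in both directions. The 6 members of the blood cell group had a median of 0.03, with 1 lower and 1 higher on all 4 arrays. The higher one is Pla2g2e, a secreted phospholipase A2 placed in this group and not taken here as a marker of blood cells, at 1.09 and 1.58. The lower one, Cd52, a surface glycoprotein of lymphocytes, stood at -0.12 and -0.47. Fgr, a kinase of the Src family in myeloid cells, stood at -0.02 and 0.10, and Pik3cd, a catalytic subunit of PI3-kinase in leukocytes, at 0.08 and -0.03. The 14 leukocyte markers, which hold no member, had a median of -0.04 (pair 1) and 0.18 (pair 2). The 7 matrix and cell surface genes had a median of -0.01, with -0.17 in pair 1 and 0.09 in pair 2, and 1 was lower and 2 higher on all 4 arrays. Sdc3 stood at -1.63 and -0.31, Col16a1 at -0.74 and 1.72, and Ece1 at -0.63 and -0.05. Hspg2, which encodes the basement membrane proteoglycan perlecan, stood at -0.17 and 0.09, Mfap2, a microfibril protein of the matrix, at 0.07 and 0.11, Ptpru, a receptor tyrosine phosphatase, at 0.12 and 0.17, and Igsf21, an immunoglobulin superfamily protein, at 0.02 and -0.03. Without these groups, a division made after the values were seen, the other 41 members had a median of -0.44 and 32 were lower on all 4 arrays, while the 13 left out had a median of 0.02 and 2 were lower on all 4.

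**Figure D3:**
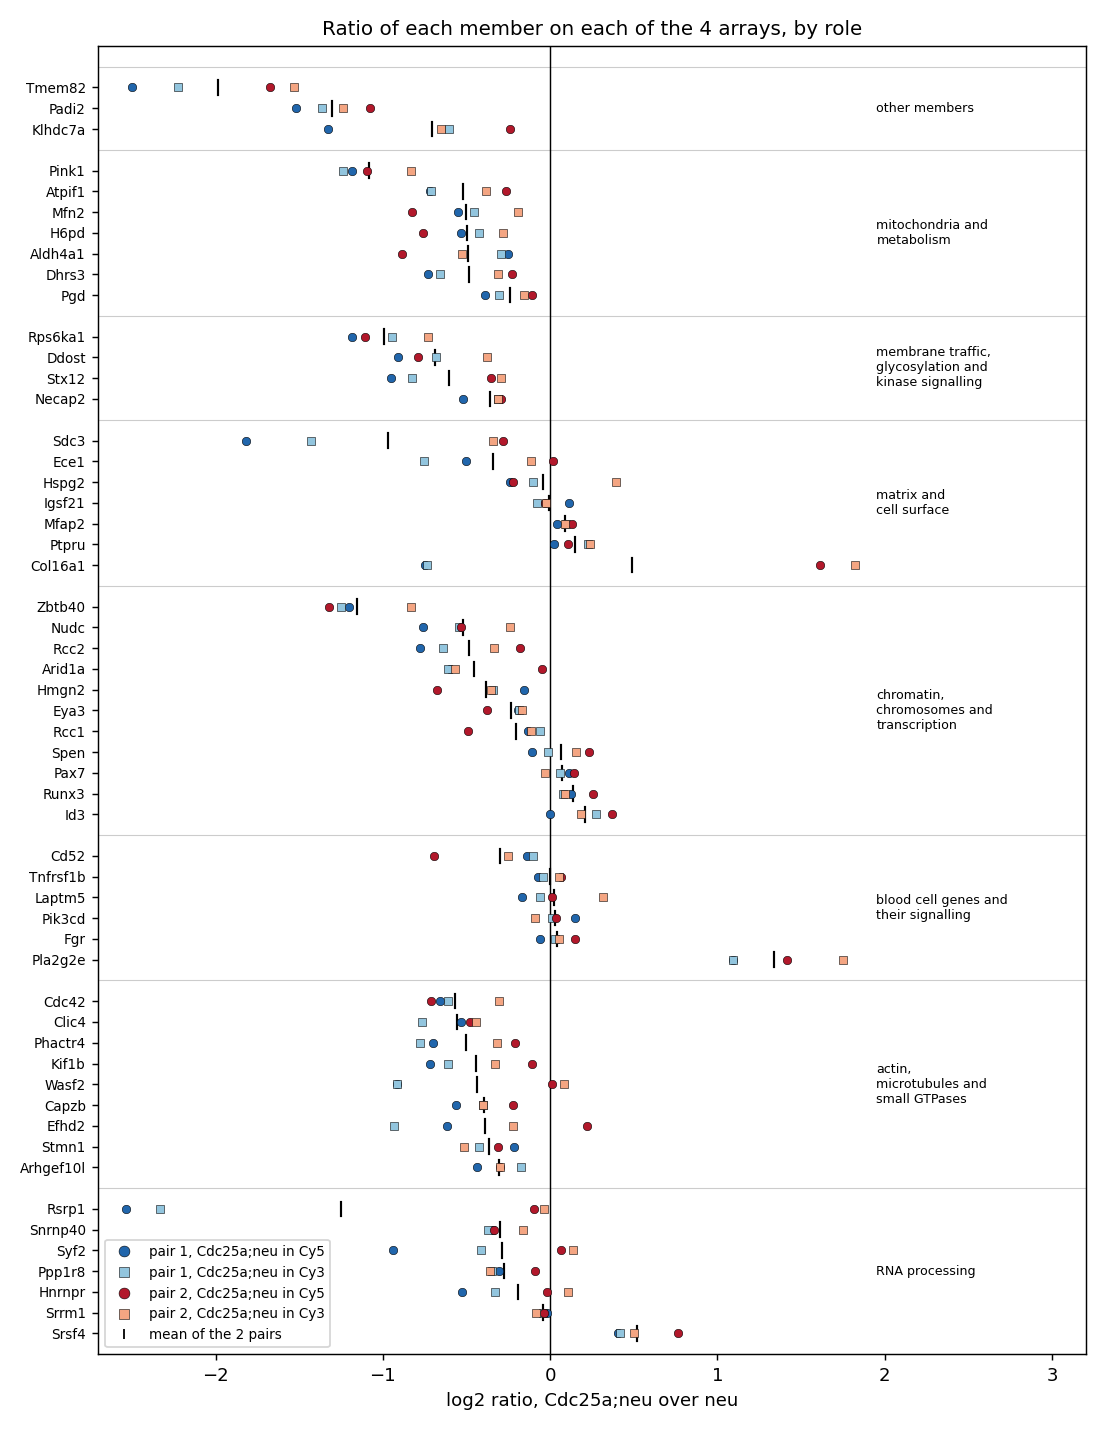
Log2 ratio of Cdc25a;neu over neu for each of the 54 members on each of the 4 arrays, grouped by role; blue symbols are pair 1 and red and orange symbols pair 2, circles and squares the 2 dye orientations, and the bar is the mean of the 2 pairs. All 7 members of mitochondria and metabolism lie below 0 on every array, while the medians of the blood cell genes and of the matrix and cell surface genes are 0.03 and -0.01.

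The 2 pairs were then compared with each other, a contrast that sets the ratio of pair 2 against that of pair 1. It was fitted with limma on the 4 arrays with a term for dye, so its error is the spread between dye-swapped arrays of the same extracts, and a call concerns these tumours and not mice in general. The values of both pairs were known when the members were chosen. Of all genes 8.48% (2757 of 32522) were called at an adjusted p under 0.05, 1803 with the higher ratio in pair 2 and 954 with the lower. With median centring in place of loess the split was 746 and 155. Of the 54 members 15 were called (27.8%), all 15 with the higher ratio in pair 2. Fewer were called with the scanner's own log ratio (3), the deposited values (5), median centring (7) or no dye term (8). Bright genes were called more often, 17.0% of the brightest tercile of all genes, against 13 of the 38 members in it (34.2%). Of the other 164 genes of the stretch 16 were called (9.88% of those tested). In the brightest tercile 13 of these other genes were called (16.9% of those tested), close to the share of all bright genes. On the rest of chromosome 4, 111 genes were called (16.5% of those tested). For genes on other chromosomes the share was 10.6%.

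Called or not, 42 of the 54 members had the lower ratio in pair 1 (77.8%), against 51.5% of all measured genes and 57.1% of the brightest tercile. The other genes of the stretch did so in 61.6% of cases, and in 78.5% in the brightest tercile. In that tercile the members stood at 81.6%.

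**Figure D4:**
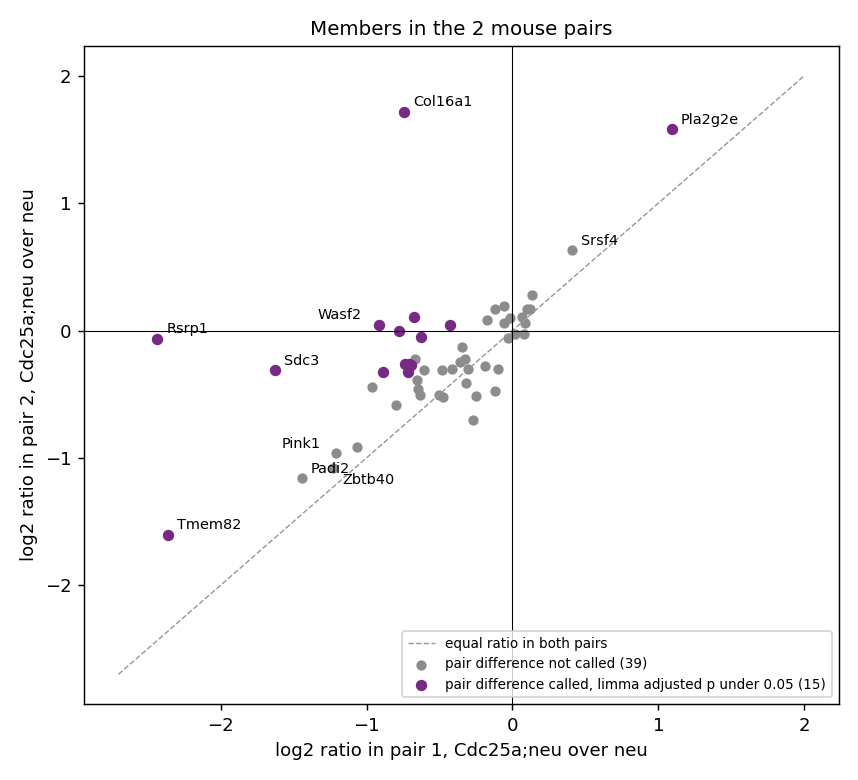
Log2 ratio of Cdc25a;neu over neu of the 54 members in pair 2 against pair 1; the dashed line marks equal ratios and purple points the 15 members called different between pairs by limma. All 15 lie above the line, and Col16a1, Rsrp1 and Sdc3 are farthest from it.

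Col16a1, a collagen chain of the fibril-associated type, changed direction between pairs. It gave -0.75 and -0.74 on the arrays of pair 1, then 1.62 and 1.82 on those of pair 2, so the pairs lie on opposite sides of 0 and do not overlap. The difference was 2.46 ± 0.09 (SE), with limma's adjusted p = 0.000167. Its normalized log2 signal was 10.3 in the neu tumour and 9.53 in the Cdc25a;neu tumour of pair 1, and 9.89 and 11.6 in pair 2. Most fibroblast and matrix markers also had the higher ratio in pair 2, but not all of them changed direction. The median of the 9 genes was -0.38 in pair 1 and 0.70 in pair 2. The ratio was higher in pair 2 for 8 of 9, and 6 were called, all 6 higher in pair 2. Dcn, Lum and Pdgfra (3 of 9) stayed below 0 in both pairs. Lum had the lower ratio in pair 2, with -0.26 in pair 1 and -0.42 in pair 2. Over the 9 markers the mean log2 signal was 8.55 and 8.11 in the neu and Cdc25a;neu tumours of pair 1. In those of pair 2 it was 9.15 and 9.67. The part of fibroblasts in the ratio of Col16a1 was not tested.

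Rsrp1, which encodes a protein rich in arginine and serine, was far below 0 in pair 1 and just below 0 in pair 2. Its ratios were -2.54 and -2.33 in pair 1, then -0.09 and -0.04 in pair 2, a difference of 2.37 ± 0.09 (SE, limma's adjusted p = 0.000167). The log2 signal was 13.0 in the neu tumour of pair 1, 10.5 in the Cdc25a;neu tumour of pair 1, and 12.7 and 12.6 in the neu and Cdc25a;neu tumours of pair 2. One tumour of the 4 thus stood apart. Sdc3, a syndecan that carries heparan sulfate on the cell surface, gave -1.82 and -1.43, then -0.28 and -0.34, a difference of 1.32 ± 0.12 (SE, adjusted p = 0.00318 with limma). Its signal was 8.29 in the neu tumour and 6.67 in the Cdc25a;neu tumour of pair 1, and 8.36 and 8.05 in pair 2. Col16a1, Rsrp1 and Sdc3 were the only members whose call held under all 9 alternatives of processing tried for this comparison.

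**Figure D5:**
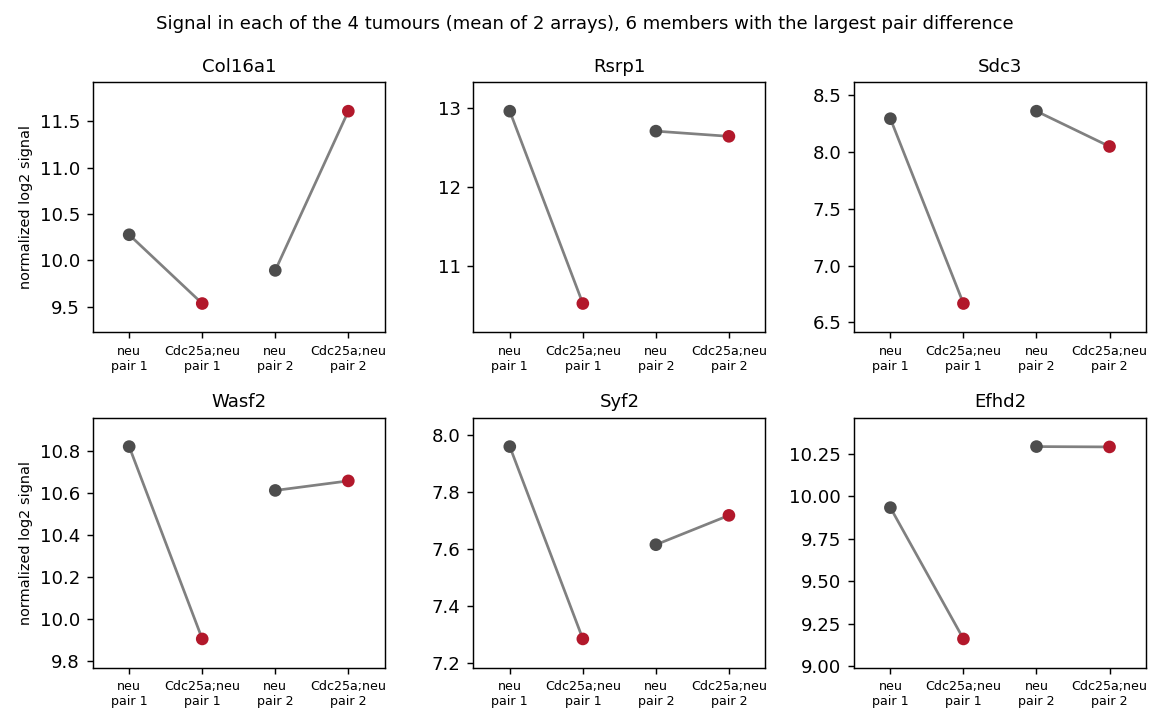
Normalized log2 signal, the mean of 2 arrays, in each of the 4 tumours for the 6 members with the largest called difference between pairs; grey points are neu and red points Cdc25a;neu tumours, lines join the tumours of a pair, and the vertical scale differs between panels and does not start at 0. Rsrp1 and Sdc3 are lowest in the Cdc25a;neu tumour of pair 1, and Col16a1 is highest in the Cdc25a;neu tumour of pair 2.

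Wasf2, a WAVE protein that starts branched actin growth, gave -0.92 and -0.92 in pair 1, then 0.01 and 0.08 in pair 2, a difference of 0.96 ± 0.09 (SE, limma's adjusted p = 0.00269). Syf2, a spliceosome component whose gene is next to Rsrp1 among those measured, gave -0.94 and -0.41, then 0.07 and 0.14, a difference of 0.78 ± 0.12 (SE, adjusted p = 0.0170). Efhd2, a calcium-binding protein of the actin cytoskeleton, gave -0.62 and -0.93, then 0.22 and -0.22, a difference of 0.77 ± 0.09 (SE, adjusted p = 0.00584). In these 3 genes pair 1 was low and pair 2 close to 0. Tmem82 differed by 0.76 ± 0.09 (SE, adjusted p = 0.00622) and stayed low in both pairs.

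Ece1, the endothelin-converting protease, gave -0.50 and -0.75 in pair 1, then 0.02 and -0.11 in pair 2 (difference 0.58, limma's adjusted p = 0.0144). Stx12 gave -0.95 and -0.82, then -0.35 and -0.29 (difference 0.56, adjusted p = 0.0146). Hnrnpr, an RNA-binding protein of nuclear transcripts, gave -0.53 and -0.33, then -0.02 and 0.11 (difference 0.47, adjusted p = 0.0249). Stx12 was low in both pairs, whereas Ece1 and Hnrnpr came near 0 in pair 2. Phactr4, a regulator of phosphatase 1 and actin, gave -0.70 and -0.78, then -0.21 and -0.32 (difference 0.47, adjusted p = 0.0240). Rcc2, a chromosome-associated protein of mitosis, gave -0.78 and -0.64, then -0.18 and -0.34 (difference 0.45, adjusted p = 0.0498).

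Dhrs3 gave -0.73 and -0.66 in pair 1, then -0.23 and -0.31 in pair 2 (difference 0.42, limma's adjusted p = 0.0409). For Pla2g2e the difference was 0.49 (adjusted p = 0.0450) and for Atpif1 0.39 (adjusted p = 0.0484). Rcc2, Atpif1, Pla2g2e and Dhrs3 lie close to the threshold and lost the call under 7, 8, 5 and 5 of the 9 alternatives.

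In 6 members both arrays of pair 1 lay on one side of 0 and both of pair 2 on the other, where 13.5% of all genes did. Col16a1, Wasf2 and Syf2 are 3 of these. Laptm5, a lysosomal protein of blood cells, gave -0.17 and -0.06, then 0.01 and 0.32 (limma's adjusted p = 0.147). Spen, a transcriptional corepressor, gave -0.11 and -0.01, then 0.23 and 0.16 (adjusted p = 0.181), and Tnfrsf1b, a receptor for tumour necrosis factor, -0.07 and -0.04, then 0.06 and 0.05 (adjusted p = 0.587). These last 3 were not called, and their ratios are small in both pairs.

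Some genes of the stretch that are not on the list had ratios as large as those of the members. Epha2, a receptor tyrosine kinase for ephrins, gave -1.80 and -1.76 in pair 1, then -1.71 and -1.67 in pair 2, a mean of -1.73 ± 0.06 (SD, n = 2 pairs). Extl1, a glycosyltransferase of heparan sulfate, had a mean of -0.95 ± 0.47, and Luzp1, a leucine zipper protein of the actin cytoskeleton, of -0.93 ± 0.26 (SD, n = 2 each). Rbp7, a retinoid-binding protein, was the highest at 2.39 ± 0.08, followed by Spata21 at 0.49 ± 0.22 and Fbxo2, an F-box protein that binds glycoproteins, at 0.42 ± 0.13 (SD, n = 2 each). The extremes of the stretch in both directions thus include genes outside the list.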

How the data were processed

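RNA of 4 mouse tumours was measured on 4 two-colour Agilent arrays, 2 per mouse pair with dyes exchanged. Direction was taken from the labels' dyes. The authors deposited scanner intensity values and log10 ratios from Agilent Feature Extraction, version 7.5.1 per the file headers and 7.2 per the submitters' processing notes. They also deposited a table of log ratios whose scale is not stated; against the scanner's log10 ratios (spots bright in both channels) its slopes were 2.24 to 2.30 with positive correlations, so the values as deposited by the authors were read as the natural log of red over green, and how they were made is not stated. Its column medians were 0.0007 to 0.0209, and its normalization and centring are unknown. No genome build was given in the sources used here.

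Intensities were background-corrected with limma 3.58.1 in R 4.3.3 (normexp, offset 50) and loess-normalized within arrays, with control spots and spots marked as outliers by the scanner software given no weight. Spots of a probe were averaged and ratios turned to log2 of Cdc25a;neu over neu. A probe was kept if either channel was well above background on 2 or more arrays (37177 of 41174), and a gene was represented by its brightest probe. Tumour signals are channel values after Aquantile normalization.

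Probes were named through RefSeq accessions, then current symbols, then unique synonyms; 20315 of 41174 probes kept the array's own name. Of the members, 36 were also found by symbol or synonym in the array's gene name and 18 through an accession alone. This departs from matching by gene name only, which is given as an alternative. Gene order came from the annotation of GRCm38.p6.

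The genotype test was limma on the 2 pair means against 0, and the pair test limma on 4 arrays with a dye term, two-sided with Benjamini-Hochberg adjustment over all genes tested. Replicate numbers in the titles mark the dye orientation; swapped arrays are technical repeats of the same extracts. Both fits were tested on simulated data, where each recovered 100 of 100 changed genes at log2 differences of 1 and of 2. Unchanged genes were called too, 8 in the pair fit and 5 in the genotype fit. For the pair fit the simulated errors followed the spread that the fit itself had estimated, so recovery was likely from the start. Differences under 1, the size of most called members, were not simulated. For the genotype fit the simulation gave all genes an equal spread, which real genes need not have. It therefore does not show how many real changes that fit would find.

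Members, role groups, marker lists and tests were chosen with earlier results of these data known. Values on every array are given for the 8 lowest and 4 highest members, those called between pairs, those with pairs on opposite sides of 0 and those whose probes differ in sign. The arrays' number limits the precision.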

Additional observations from a re-analysis of the deposited data

Results flagged for a closer look

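The ratio of Cdc25a;neu over neu differed between the pairs, by limma's test of the difference over all genes, in 15 members. The differences (pair 2 minus pair 1, log2) were 2.46 for Col16a1, 2.37 for Rsrp1 and 1.32 for Sdc3. They were 0.96 for Wasf2, 0.78 for Syf2, 0.77 for Efhd2 and 0.76 for Tmem82. For Ece1 the difference was 0.58, for Stx12 0.56 and for Pla2g2e 0.49. Phactr4 differed by 0.47, Hnrnpr by 0.47 and Rcc2 by 0.45, and Dhrs3 by 0.42 and Atpif1 by 0.39. Laptm5 at 0.28, Spen at 0.25 and Tnfrsf1b at 0.11 were noted only because all arrays of pair 1 lay below 0 and all arrays of pair 2 above it; limma's test did not call them.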

How the results depend on the processing

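The sign of the mean ratio was the same under all 11 alternatives tried per member for 48 of 54 members (39 lower and 9 higher); it changed for Laptm5, Srsf4, Hspg2, Igsf21, Tnfrsf1b and Pik3cd under at least 1. With median centring in place of loess, single arrays differed by dye orientation. For pair 1 the members' median was -0.11 with Cdc25a;neu in Cy5 but -0.91 with it in Cy3. For pair 2 it was 0.17 (Cy5) or -0.24 (Cy3), and -0.072 over both arrays. Under this setting 14 members were lower on all 4 arrays in place of 34. The genotype test called 933 genes, and the pair test 901 genes and 7 members. In limma's genotype test 2586 genes had an unadjusted p under 0.05, against 3149 with loess. Its lowest adjusted p was 1.45e-37. That test used means of dye-swapped arrays and the pair test a dye term. Why the number of calls changed was not tested. With the scanner's log ratio the members' medians were -0.55 in pair 1 and -0.28 in pair 2, the median of the other genes of the stretch was -0.16, and 445 genes and 3 members were called between pairs. With the deposited values the members' median in pair 2 was -0.31, and 759 genes and 5 members were called. With the mean of all probes the members' medians were -0.36 in pair 1 and -0.21 in pair 2. Leaving out 1 array at a time gave -0.26 to -0.22 for the members' median in pair 2. The dimmest tercile, with 2 members, had a median of -0.079. Matching by gene name alone, chosen after seeing the data, left fewer members, of which 22 were lower on all 4 arrays and 23 in both pairs. With the replicate number (dye orientation) as a block and the 4 arrays as units, which counts technical repeats as replicates, 15 genes were called between genotypes; without the dye block 1482 genes and 8 members were called between pairs. Of the 135 recalculations of the called members' differences 46 lost the call and none changed direction. Apart from the alternatives named, the cause was not tested. Leaving out an array could not be run for the pair comparison, since the fit with the dye term then has no residual degrees of freedom.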
